A study of Mus musculus with 30 samples.

Results

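The comparison concerned mouse bone marrow pro-B cells in which CBE1 of IGCR1 was mutated, set against wild-type pro-B cells, by the junctions that their JH4 segment had formed with the V, D and JH segments of the antibody heavy-chain locus (Igh). The members were the 3 libraries titled CBE1mut_BM, labelled with the genotype CBE1-/-, and the 3 titled WT_BM, labelled WT, chosen by title from the 30 libraries of the series. Both groups came from 129SV mice, and the cells were sorted as B220+IgM-CD43+. No treatment was recorded for them, and the labels give neither the ages of the mice nor whether the 3 libraries of a group came from separate mice, so the p-values measure the spread between libraries, which may be technical. All 6 libraries came from the same sequencing run according to their deposited names. CBE2, the other element of IGCR1, was not labelled as altered in either group.

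HTGTS-V(D)J-seq is an assay that primes on genomic DNA at a bait, here JH4, and sequences outward into whatever DNA has been joined to it. In developing B cells the RAG recombinase cuts at recombination signal sequences (RSSs), each made of a heptamer, a spacer and a nonamer, first joining a D to a JH segment and then a V segment to that DJH product. A D join in these data is therefore taken as a DJH product, and a V join as a VDJH product, although a D was not read in every V join. IGCR1 (intergenic control region 1) separates the D segments from the V segments, and its CBE1 and CBE2 are sites bound by CTCF. CTCF halts the loop extrusion by which cohesin reels chromatin past RAG held at the JH end. IGCR1 is known for keeping the V segments nearest to D from being used too early and too often.

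Each library held between 57970 and 89905 junctions. The WT libraries held 79560, 57970 and 89905, and the CBE1mut libraries held 72658, 76803 and 77755. V and D joins made up 96.6% to 97.2% of the WT and 97.5% to 97.7% of the CBE1mut junctions. Reads that repeated the junction and break points of an earlier read of the library made up 29.1%, 31.4% and 39.9% of the WT and 31.5%, 44.4% and 41.5% of the CBE1mut libraries. The added bases were not compared, so some of these reads may be separate joins with equal ends. Others may be PCR copies or sister cells, so counts are not independent molecules. More cells with a join cannot be told apart from more copies of it. Junctions of JH4 with the antigen receptor loci that other lineages or later stages assemble were near 0 in both groups. The bait reads only DNA joined to JH4. Joins within those loci are not seen, so these counts do not measure how many such cells were present. The T cell receptor alpha and delta locus on chromosome 14 held 8 WT and 6 CBE1mut junctions, the gamma locus on chromosome 13 held 0 and 0, the beta locus on chromosome 6 held 0 and 6, and the kappa light chain locus held 0 and 2. Junctions outside chromosome 12 stood at 69.8 ± 13.1 per 100000 in WT and 63.8 ± 25.4 in CBE1mut (SD, n = 3 each).

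The alignment target carried 150 V and 25 D segments with joins, of which 84 V and 5 D segments could be given a reference name. The other segments are given by their distance from Ighd4-1, the D nearest to JH. The 6 V segments closest to D on which the comparison turned are shown with the last 12 bases of their coding end and the RSS that follows, read 5′ to 3′ from mm9, the C57BL/6 reference, since the mice were of another strain. The capitals mark the heptamer and the nonamer, and the lower-case bases between them are the 23-base spacer.
Ighv5-1: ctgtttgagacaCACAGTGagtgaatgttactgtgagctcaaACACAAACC
Ighv5-2: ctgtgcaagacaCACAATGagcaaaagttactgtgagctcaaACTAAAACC
Ighv2-2: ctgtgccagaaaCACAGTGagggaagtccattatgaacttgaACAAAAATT
Ighv5-4: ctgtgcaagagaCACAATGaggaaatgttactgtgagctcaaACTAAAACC
Ighv2-3: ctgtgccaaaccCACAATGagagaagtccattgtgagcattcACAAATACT
Ighv5-6: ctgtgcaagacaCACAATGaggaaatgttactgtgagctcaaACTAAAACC
In mm9 these stretches lie on the minus strand of chromosome 12, at chr12:114811099-114811149 for Ighv5-1, chr12:114816676-114816726 for Ighv5-2, chr12:114826439-114826489 for Ighv2-2, chr12:114835618-114835668 for Ighv5-4, chr12:114849356-114849406 for Ighv2-3 and chr12:114863678-114863728 for Ighv5-6. Ighv5-4 and Ighv5-6 have the same heptamer and the same nonamer as Ighv5-2, and their spacers differ from its spacer at 2 of 23 bases. Ighv5-1 differs from Ighv5-2 in heptamer and nonamer and at 3 spacer bases. These are the segments whose levels are given first.

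The first question was how the balance between the steps of assembly changed, that is how many of the V and D joins were V joins. The V share was 37.0%, 35.7% and 30.6% in the WT libraries and 71.7%, 73.6% and 72.6% in the CBE1mut libraries. Each of these percentages had an exact 95% binomial interval within 0.4 points of it, which covers counting error only. Every CBE1mut library lay above every WT library, by a mean of 38.2 points (exact two-sided permutation p = 0.1). This is 1 of 10 quantities tested library against library and adjusted together. For each, 3 libraries against 3 allow no p below 0.1, and Benjamini-Hochberg adjustment over the 10 gives 0.167 at best.

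By part of the locus, the V segments nearest to D were the only zone called higher. In the nearest of 3 parts of the V region, each 936 kb long, the level rose from 18665, 19741 and 17275 junctions per 100000 in WT to 62267, 65185 and 64124 in CBE1mut (log2 change 1.78, limma adjusted p = 7.4e-11). The middle part fell from 10713 ± 1934 to 5157 ± 314 per 100000 (log2 change −1.04, limma adjusted p = 9.5e-04). The farthest part fell from 4211 ± 592 to 2036 ± 308 (log2 change −1.05, limma adjusted p = 0.00566). The D segments between Ighd4-1 and Ighd1-1 fell from 46436 ± 1960 to 18695 ± 653 (log2 change −1.31, limma adjusted p = 5.4e-07). Of the 11 zones fitted with limma, 1 was called higher (9.09%) and 5 were called lower (45.5%), the remaining calls being the first D, Ighd4-1, and the last main D, Ighd1-1. Levels in a library add up to a fixed total, so a large gain at a few segments lowers the level of all others by construction, and the sections that follow therefore also give each segment against the V joins or the D joins alone.

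The gain lay in 3 adjacent V segments. Ighv5-2, also known as VH81X and the functional V segment closest to D, stood at 3526, 3923 and 3315 junctions per 100000 in WT and at 43919, 48106 and 46659 in CBE1mut. It took more junctions in every CBE1mut library than all D segments between Ighd4-1 and Ighd1-1 together. Its log2 change was 3.70 with a standard error of 0.09.
Ighv5-1, a pseudogene by annotation that sits even closer to D, stood at 152, 207 and 146 per 100000 in WT and at 2257, 2463 and 2182 in CBE1mut. Its log2 change of 3.80 (SE 0.22) was close to that of Ighv5-2, at a far lower level in both genotypes. Ighv2-2, the next segment beyond Ighv5-2, stood at 1933, 2268 and 1839 in WT and at 7553, 6540 and 7405 in CBE1mut (log2 change 1.85, SE 0.11).
The groups were far apart for these 3 segments and overlapped at the fourth. Ighv5-4 stood at 1048, 1389 and 1039 in WT and at 1277, 1338 and 1389 in CBE1mut, and was not called (log2 change 0.24, limma adjusted p = 0.136). Ighv2-3, the fifth, fell from 833, 925 and 824 to 416, 506 and 428 (log2 change −0.93, limma adjusted p = 4.7e-05). Ighv5-6, the sixth, fell from 689, 669 and 562 to 285, 128 and 150 (log2 change −1.85, limma adjusted p = 3.6e-08). Of 166 segments tested with limma, 4 rose (2.41%) and 101 fell (60.8%), with a median log2 change of −1.02. The fourth riser is a D segment described with the interval, which reached the minimum of 10 junctions per library only where it was high and not in any WT library.

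**Figure D1:**
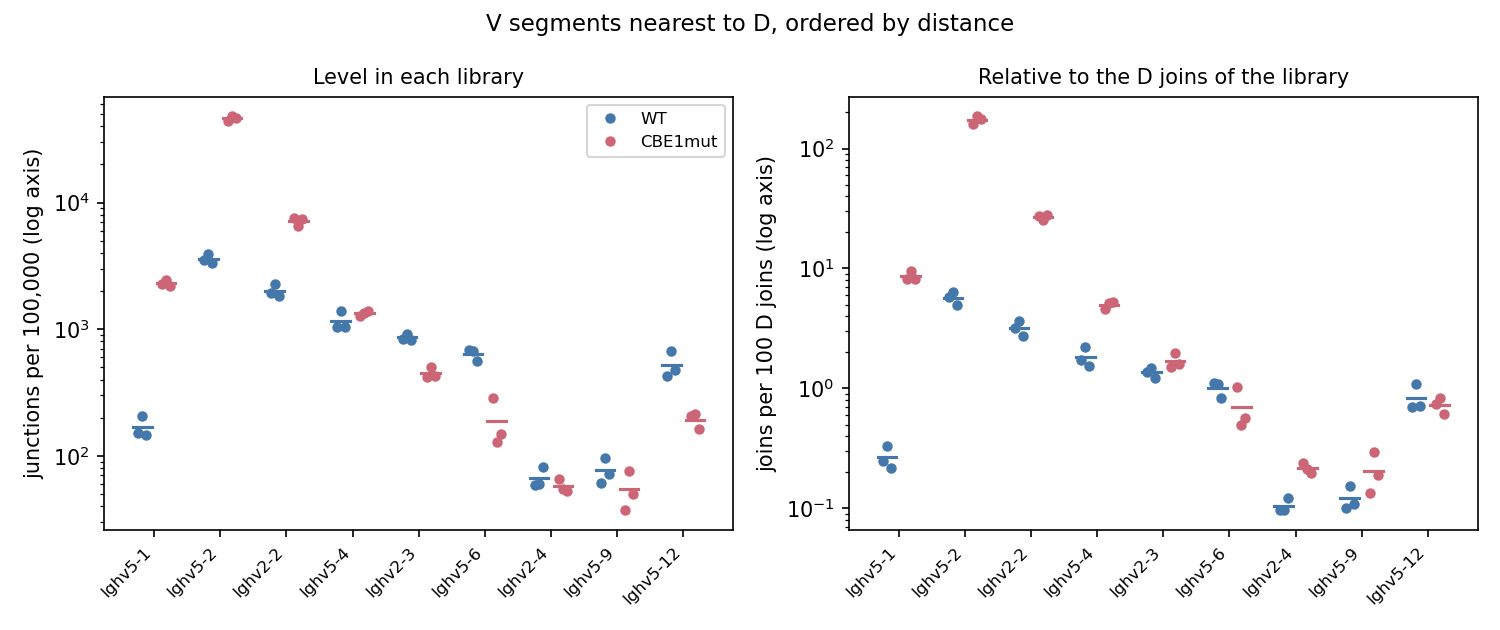
Levels of the 9 named V segments among the 10 closest to D, in order of distance, for each WT (blue) and CBE1mut (red) library with the group mean as a bar, as junctions per 100000 on the left and per 100 D joins of the same library on the right, both on log axes. Ighv5-1, Ighv5-2 and Ighv2-2 lie far higher in CBE1mut on both scales, while Ighv5-4 overlaps on the left and separates on the right.

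Set against each other as percentages of V joins, the same 3 segments were the only ones called higher, a count that other scalings raise as given further on. Ighv5-2 made up 9.80%, 11.4% and 11.2% of V joins in WT and 62.7%, 66.9% and 65.9% in CBE1mut (log2 change 2.60, limma adjusted p = 2.0e-61). Ighv5-1 rose from 0.42%, 0.60% and 0.493% to 3.22%, 3.43% and 3.08%, and Ighv2-2 from 5.37%, 6.57% and 6.22% to 10.8%, 9.10% and 10.5%. Of 142 V segments tested this way with limma, 3 rose (2.11%) and 135 fell (95.1%), with a median log2 change of −2.13. Ighv5-4 fell from 3.48% to 1.88% of V joins (log2 change −0.87). Ighv5-6 fell from 1.92% to 0.266% (log2 change −2.96), one of the steepest falls among the named V segments. Another V segment near the D end, the tenth from D and closest in sequence to Ighv2-6, fell from 0.398% to 0.0405% (log2 change −3.66). The 10 fallers with the largest change had log2 changes between −4.05 and −2.88.

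The fall among the other V segments depends on what they are set against. Scaled by the median-of-ratios method, which centres the middle of all segments near 0 instead of fixing the total, the median log2 change over V segments moved from −2.13 to −0.05. Under that scaling limma called 6 V segments higher (4.23%) and 3 lower (2.11%) among V joins. The added risers were Ighv5-4 (log2 change 1.18, adjusted p = 1.7e-05), Ighv2-9 (0.70, adjusted p = 0.00877) and an unnamed segment at chr12:115523698 of the alignment target (0.84, adjusted p = 0.00411), all from the same limma fit. The fallers were Ighv5-6 (−0.87, adjusted p = 0.0236), the tenth V segment (−1.59, adjusted p = 0.0236) and a segment at chr12:116240676 (−0.70, adjusted p = 0.0382), from that limma fit too. Over all 166 segments the same scaling gave 7 higher (4.22%) and 0 lower with limma, with 11 lower at an unadjusted p under 0.05, and TMM scaling gave 7 higher and 1 lower.

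D joins are the products that V segments join to, and V joins were also counted per 100 D joins of the same library. A DJH product that a V segment joins is no longer a D join, so V segments still share this base. A gain at a few segments can therefore raise the values of all others. The number of D joins per library was 48340 ± 12110 in WT and 20228 ± 470 in CBE1mut. Ighv5-2 stood at 5.76, 6.31 and 4.95 joins per 100 D joins in WT and at 159, 186 and 175 in CBE1mut, a 30.6-fold ratio of means. Ighv5-1 showed a 32.4-fold and Ighv2-2 an 8.42-fold ratio. Ighv5-4 went from 1.71, 2.23 and 1.55 to 4.61, 5.19 and 5.21, a 2.73-fold ratio with no overlap, and Ighv2-3 from 1.36 to 1.69 on average. Ighv5-6 had a mean of 1.01 in WT and 0.69 in CBE1mut, with overlapping libraries. The ratio thus fell with distance along the first 6 segments, from 30.6 at Ighv5-2 to below 1 at Ighv5-6. Beyond them it did not keep falling. It was 2.06 at Ighv2-4, with no overlap, and 1.69 at Ighv5-9 and 0.872 at Ighv5-12, both with overlap. The part of distance, of the RSS and of other sequence in this order was not tested.

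For the other 147 V segments the median ratio per 100 D joins was 1.17, with quartiles of 0.976 and 1.48. The groups did not overlap for 29 of them, all higher in CBE1mut (19.7%), and for 0 in the lower direction, a comparison of ranges with no test. The highest ratio among them, 13, belonged to a little-used Ighv5 member 513.1 kb beyond Ighv5-1 and rested on 3 WT and 14 CBE1mut junctions. The middle part of the V region gave 20.8, 17 and 13.2 V joins per 100 D joins in WT and 19.9, 19.1 and 18.8 in CBE1mut. The farthest part gave 7.73, 6.97 and 5.32 in WT and 8.64, 7.17 and 6.99 in CBE1mut. In both parts the groups overlapped, so the falls in level given above were not seen relative to D joins, a base itself lower in CBE1mut. The nearest part without Ighv5-1, Ighv5-2 and Ighv2-2 gave 20.2 ± 2.03 in WT and 30.2 ± 1.06 in CBE1mut, with no overlap (exact two-sided permutation p = 0.1).

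**Figure D2:**
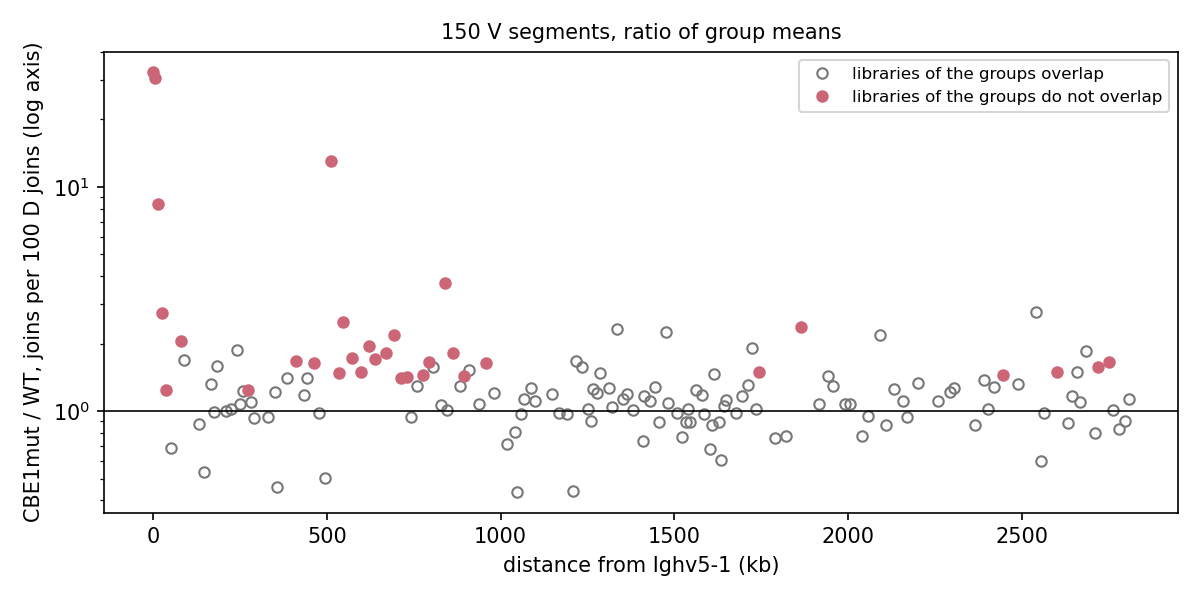
Ratio of the CBE1mut mean to the WT mean for each V segment, in joins per 100 D joins on a log axis, against the distance of the segment from Ighv5-1 in kb. Filled points mark segments whose libraries do not overlap between the groups. The first segments stand out at ratios up to 32.4, and beyond them most of the V region scatters around a median of 1.17.

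The usage of V segments became far less even. The effective number of V segments, the exponential of the Shannon entropy of their shares, was 77.5, 69.4 and 72.0 in WT and 7.39, 6.15 and 6.20 in CBE1mut (exact two-sided permutation p = 0.1, adjusted p = 0.167). In WT the most used 19 to 21 V segments held 50% of V joins, and in CBE1mut a single segment, Ighv5-2, did. Without Ighv5-1, Ighv5-2 and Ighv2-2 the effective number was 87.5 ± 2.70 in WT and 75.8 ± 3.34 in CBE1mut, apart by much less. By family, the 20 members of Ighv5 together went from 26.9% ± 2.38 to 73.1% ± 2.07 of V joins. Within V joins 2 of the 19 Ighv5 members tested rose, Ighv5-1 and Ighv5-2, and 17 fell, beside 135 of 142 over all V segments (95.1%). The 67 members of Ighv1, the large family of the middle and far V region, went from 26.1% ± 1.98 to 5.78% ± 0.547, and 60 of 61 tested fell. The 9 members of Ighv8 went from 4.18% to 0.914%, and 7 of 8 tested fell. Both counts are near the 95.1% over all V segments and so say nothing particular to these families, and with median-of-ratios scaling 3 V segments in all were called lower.

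Among D joins alone the redistribution was small next to that of V. The 5 D segments below are shown as RSS and core from the upstream side, with the nonamer and heptamer of the 5′ RSS in capitals and the lower-case bases after the heptamer giving the D itself, because this is the RSS that the next step, V to DJH joining, uses. They were read from the deposited reads and so belong to the 129SV allele. Unnamed D segments carry their distance from Ighd4-1.
Ighd4-1: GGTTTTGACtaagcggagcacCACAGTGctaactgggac
D at 32.3 kb: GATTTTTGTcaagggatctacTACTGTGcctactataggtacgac
D at 41.6 kb: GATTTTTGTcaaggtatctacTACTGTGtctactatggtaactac
Ighd1-1: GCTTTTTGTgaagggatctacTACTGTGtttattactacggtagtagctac
D at 111.0 kb: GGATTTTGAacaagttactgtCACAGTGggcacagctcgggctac
On the alignment target, in which the heavy-chain sequence of the strain is joined to mm9 so that positions differ from mm9 itself, these stretches lie on the minus strand at chr12:114673089-114673127, chr12:114705399-114705443, chr12:114714725-114714769, chr12:114734544-114734594 and chr12:114784064-114784108 in the order given.

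Ighd4-1, also known as DQ52 and the D closest to JH, took 5.83%, 5.37% and 5.68% of D joins in WT and 8.95%, 9% and 8.98% in CBE1mut. It rose within D joins by 0.67 on the log2 scale (SE 0.07, limma adjusted p = 1.8e-10), although its level per 100000 junctions fell from 3570 ± 234 to 2399 ± 76.7. Ighd1-1, also known as DFL16.1 and the D farthest from JH in the main group, took 20.9%, 22.9% and 22.6% in WT and 21.6%, 22.3% and 21.4% in CBE1mut. Its log2 change within D joins was −0.02 with a 95% interval from −0.15 to 0.11, while its level per 100000 junctions fell from 14047 ± 1187 to 5811 ± 149.

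Of 24 D segments tested within D joins with limma, 7 rose (29.2%) and 4 fell (16.7%). The D at 32.3 kb, of the Ighd2 family, fell from 10%, 9.50% and 10% to 6.76%, 6.98% and 6.97% (log2 change −0.51, limma adjusted p = 1.5e-07). Ighd2-3 fell from 10.1% ± 0.548 to 7.83% ± 0.25, and the Ighd2 members at 27.3 and 37.0 kb fell by 0.33 and by 0.25 on the log2 scale. The call at 37.0 kb was lost without CBE1mut replicate 3 (log2 change −0.22, limma adjusted p = 0.0511). The D at 41.6 kb, also of the Ighd2 family, moved the other way, from 8.69%, 9.13% and 8.71% to 10.7%, 10.7% and 12% (log2 change 0.33, limma adjusted p = 5.1e-05), a call that TMM scaling lost (log2 change 0.15, limma adjusted p = 0.169). The D at 50.4 kb passed narrowly (log2 change 0.19, limma adjusted p = 0.0446) and is not firm. Its log2 change was 0.12 under median-of-ratios (limma adjusted p = 0.328) and 0.02 under TMM scaling (limma adjusted p = 0.841). It also did not pass in the limma trend fit, in the fit of the 4 groups of the run, or without WT replicate 1 or replicate 3, or CBE1mut replicate 1 or replicate 3. The other risers each held less than 0.15% of D joins in WT. They include the D at 111.0 kb, and the other 3 each lost the call when 1 of the libraries was left out. Without CBE1mut replicate 3 the count of calls was 7 in place of 11. As a family, Ighd2 went from 62.3% ± 1.33 to 57.7% ± 0.966 of D joins and Ighd1 from 28.9% ± 1.75 to 28.8% ± 0.86.

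**Figure D3:**
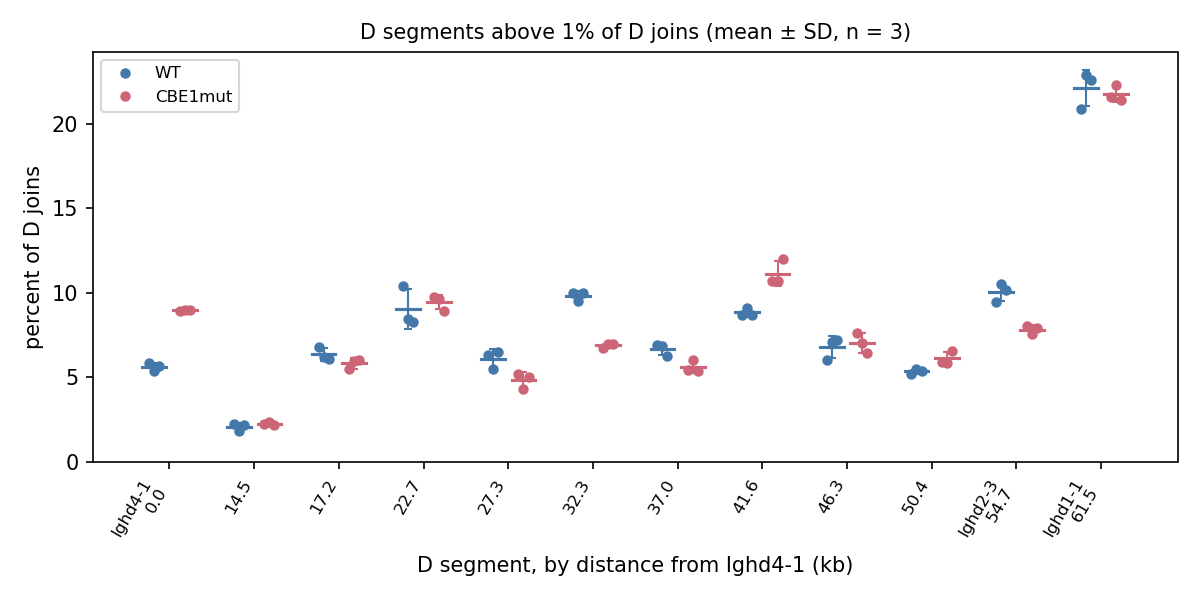
Share of D joins taken by each D segment of the main group that holds above 1% of them, in order of distance from Ighd4-1 in kb, with the WT (blue) and CBE1mut (red) libraries as points and the mean ± SD as bars. Ighd4-1 at 0 kb lies near 9% in CBE1mut and under 6% in WT, and Ighd1-1 at 61.5 kb lies between 20.9% and 22.9% in both.

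A VDJH join still carries the D segment to which the V was joined, and it can be read where at least 8 bases match a single D. Under 8 bases lay between bait and prey in 7.51%, 7.74% and 7.54% of V joins in WT. In CBE1mut it was 8.41%, 8.42% and 8.05%. No D could be read in these joins, and whether they hold one was not tested. Such a D was read in 58.5% ± 0.407 of V joins in WT and 53.8% ± 0.172 in CBE1mut. Ighd1-1 made up 23.4%, 22.8% and 23.1% of the D segments read inside V joins in WT and 16.4%, 16.9% and 16.4% in CBE1mut, lower in every CBE1mut library (exact two-sided permutation p = 0.1, adjusted p = 0.167). The difference was not found within Ighv5-2, nor in the other V segments as a class. Inside Ighv5-2 joins Ighd1-1 made up 12.3%, 10.3% and 12% in WT and 11.9%, 13.5% and 11.6% in CBE1mut, with overlapping libraries. Inside joins of V segments other than Ighv5-1, Ighv5-2 and Ighv2-2 it made up 25.1%, 25.4% and 25.5% in WT and 29.7%, 31.3% and 32.5% in CBE1mut, higher in every CBE1mut library. Inside Ighv5-1 joins, of which 215 were readable in WT, it made up 13.1% ± 3.49 in WT and less in every CBE1mut library (7.91%, 9.84% and 9.59%). Weighting Ighv5-1, Ighv5-2, Ighv2-2 and the class of all other V segments as in WT gave 23.1% in WT and 28.1% in CBE1mut. Weighting these classes as in CBE1mut gave 14.9% and 16.5%. At fixed shares of these classes the CBE1mut mean was thus the higher one. The make-up within the class of other V segments was not held fixed. In every library of both genotypes Ighd1-1 had a lower share inside Ighv5-2 joins than inside the other V joins.

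The D at 32.3 kb showed the opposite preference. Inside Ighv5-2 joins it made up 32.0%, 41.9% and 34.0% in WT and 25.1%, 23% and 25% in CBE1mut. Inside the other V joins it made up 16.6%, 17.8% and 18.9% in WT and 11.2%, 8.92% and 9.08% in CBE1mut. It was lower in every CBE1mut library in both classes, as it was among D joins, yet over all V joins it stood at 20.7% ± 1.66 in WT and at 21.1% on average in CBE1mut. Ighd4-1 made up 2.63% ± 0.483 inside the other V joins in WT and 4.88% in CBE1mut, higher in every library, and 3.36% and 2.00% inside Ighv5-2 joins.

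The reading frame between V and JH4 was read in 95.2% to 96.2% of V joins of each library. V joins in frame made up 51.4%, 48.6% and 49.3% in WT and 36.7%, 33.9% and 32.8% in CBE1mut (exact two-sided permutation p = 0.1, adjusted p = 0.167). Joins in frame and without a stop codon between the V end and JH4, called open here, went from 41.4% ± 1.79 to 26.1% ± 1.82. The overall fall was not found within Ighv5-2, nor in the other V segments as a class. Open joins of Ighv5-2 made up 18.5%, 15.8% and 19.5% in WT and 18.3%, 17.9% and 17.1% in CBE1mut, with overlapping groups. Open joins of V segments other than Ighv5-1, Ighv5-2 and Ighv2-2 made up 47.6%, 46.0% and 44.4% in WT and 60.1%, 55.5% and 53.8% in CBE1mut, higher in every CBE1mut library. Ighv5-2 joins were mostly out of frame in both genotypes, and in CBE1mut they made up 72.8% ± 1.16 of all out-of-frame V joins, against 15.4% ± 0.755 in WT. They also made up 44.5% ± 3.25 of the open joins in CBE1mut, against 4.71% ± 0.726 in WT.

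The higher open share of the other V segments held along the whole V region. It went from 43.9% ± 2.17 to 52.7% ± 3.25 in the nearest part, from 45% ± 1.84 to 57.4% ± 3.08 in the middle part and from 55.6% ± 3.00 to 69.8% ± 3.07 in the farthest part, and the groups were apart in each. Of 88 V segments with at least 20 readable joins in every library, the groups did not overlap for 32 in the higher direction (36.4%) and for 1, Ighv2-2, in the lower (1.14%), ranges for which no test was made. Ighv2-2 had open shares of 24.7%, 21.2% and 22.4% in WT and 18.6%, 15.4% and 13.6% in CBE1mut. Ighv5-6, whose level had fallen, had open shares of 27.1%, 24.1% and 20.8% in WT and 46.3%, 45.4% and 45.9% in CBE1mut. Over the 85 segments other than Ighv5-1, Ighv5-2 and Ighv2-2, 74 had a higher mean open share in CBE1mut, and the median difference was 11.1 points.

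A pair of Ighv5-2 junctions from the CBE1mut libraries shows what is read, from the V end to JH4, with the D run in capitals. Each ranked first of its kind by number of libraries, then by distinct reads, then by reads. The open one had 17 reads (10 distinct) in 2 libraries and the out-of-frame one had 14 reads (7 distinct) in 2 libraries.
Ighv5-2, open: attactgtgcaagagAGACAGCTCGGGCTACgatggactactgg
Ighv5-2, out of frame: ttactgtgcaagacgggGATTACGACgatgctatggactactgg
The first carries the D at 14.5 kb, and the second a run shared by the D segments at 27.3 and 37.0 kb. Such junctions were diverse. Deletional Ighv5-2 joins of CBE1mut with a readable D held 2739 different open and 11139 different out-of-frame sequences. Joins without a readable D were not counted.

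**Figure D4:**
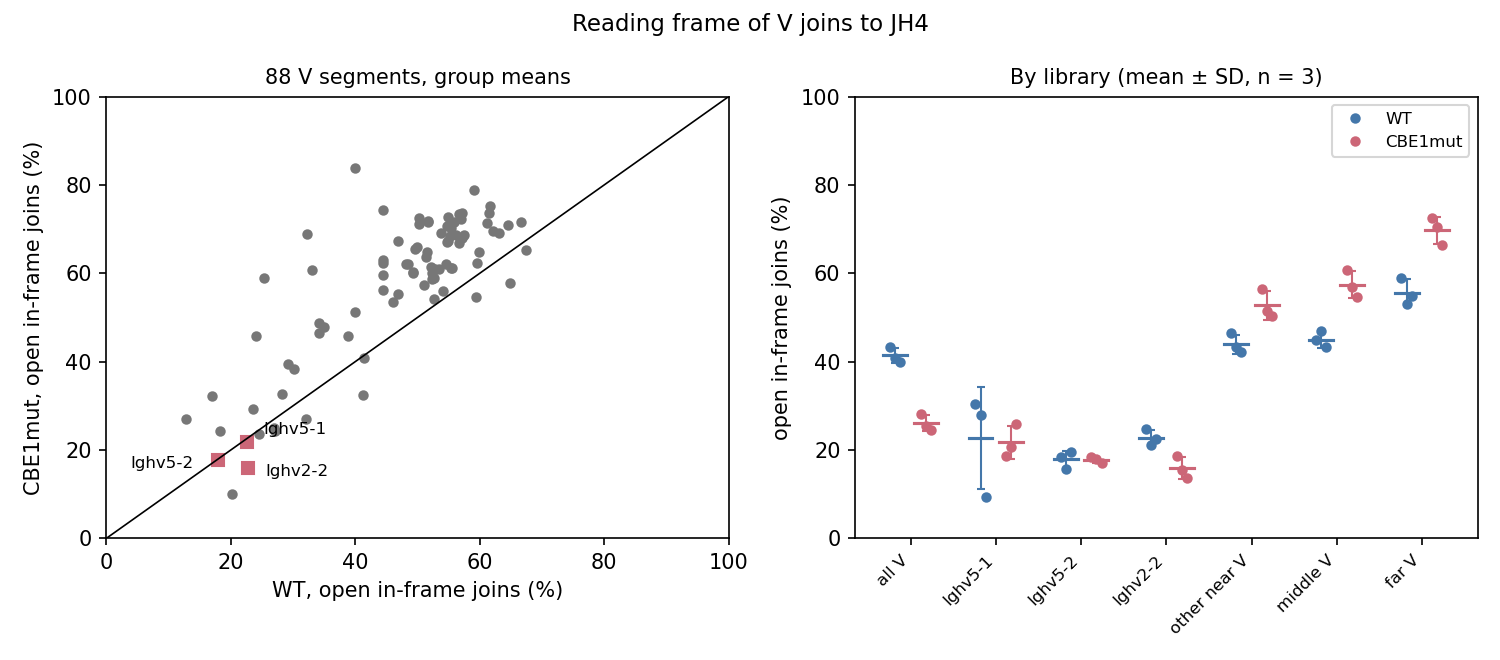
Left, open in-frame share of each V segment with at least 20 readable joins per library, CBE1mut mean against WT mean in percent, with the diagonal of equal shares, and right, the share in each library with mean ± SD for all V joins, the first 3 segments and the other V segments by part of the V region. Most segments lie above the diagonal and Ighv2-2 below it, and on the right all V joins are lower in CBE1mut while the other V segments are higher.

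IGCR1 lies in the interval of 96 kb between Ighd1-1 and Ighv5-1. A search of mm9 between the same segments for the 13-base core of the CTCF motif, on both strands, found a pair of matches. They are printed with the match in capitals because a CBE is the kind of element that was mutated.
Match at 3.08 kb beyond Ighd1-1: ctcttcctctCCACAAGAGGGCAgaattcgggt
Match at 5.70 kb beyond Ighd1-1: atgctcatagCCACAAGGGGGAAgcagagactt
The first match lies at chr12:114723480-114723492 on the minus strand and the second at chr12:114726099-114726111 on the plus strand of mm9, and they do not overlap. Of 1295 windows of the same length on chromosome 12, 1.93% held at least as many matches. The labels do not give the position of the mutation. An intact motif was held by 2 WT and 0 CBE1mut reads of the interval. A read across mutated bases would not match, so this count cannot show how many CBE1mut reads crossed the site. Neither the altered bases nor which match is CBE1 was determined here.

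Joins in the interval totalled 307, 486 and 488 per 100000 in WT and 370, 279 and 315 in CBE1mut, with overlapping groups (exact two-sided permutation p = 0.3, adjusted p = 0.375). Their places differed. Within 5 kb of Ighd1-1 lay 95.1%, 99.3% and 97.9% of them in WT and 52.0%, 41.1% and 56.7% in CBE1mut (exact two-sided permutation p = 0.1, adjusted p = 0.167). Beyond 5 kb the level was 15.1, 3.45 and 10 per 100000 in WT, from 23 junctions in all, and 178, 164 and 136 in CBE1mut, from 361 junctions. Per 100 D joins, joins within 5 kb did not separate the groups (0.656 ± 0.159 in WT and 0.603 ± 0.139 in CBE1mut), whereas those beyond 5 kb went from 0.015 ± 0.00954 to 0.596 ± 0.0737.

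The largest single gain in the interval was the D at 111.0 kb from Ighd4-1, which is 49.5 kb beyond Ighd1-1 and closest in sequence to Ighd3-1 of the reference. It stood at 11.3, 0 and 0 junctions per 100000 in WT and at 114, 87.2 and 57.9 in CBE1mut, from 9 and 195 junctions. No fold is given, because it entered the fits only through libraries in which it was high. All 9 WT junctions came from replicate 1, and a count of 0 allows up to 5.18 per 100000 in WT replicate 2 and 3.34 in replicate 3. Without this D the joins beyond 5 kb still stood at 3.77, 3.45 and 10 in WT and at 63.3, 76.8 and 78.5 in CBE1mut. They came from scattered sites, 23 in CBE1mut and 9 in WT with this D counted. A site 35285 bases beyond Ighd1-1 had 1 WT junction and 34 CBE1mut junctions (18, 11 and 5 by library), and a site at 21075 bases had 0 and 31 (3, 18 and 10). Between 10 and 45 kb the level was 1.26, 1.73 and 4.45 per 100000 in WT and 31.7, 40.4 and 28.3 in CBE1mut.

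Close to Ighd1-1 the sites did not all move together. The site 1008 bases beyond Ighd1-1 held 423 WT and 97 CBE1mut junctions, or 43.8% and 13.3% of the interval joins. The site at 3154 bases held 199 and 185, or 20.6% and 25.4%. From 0 to 2 kb the level was 200, 307 and 328 per 100000 in WT and 56.4, 48.2 and 82.3 in CBE1mut, lower in every library, while from 2 to 5 kb it was 91.8, 176 and 150 in WT and 136, 66.4 and 96.5 in CBE1mut, with overlap.

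**Figure D5:**
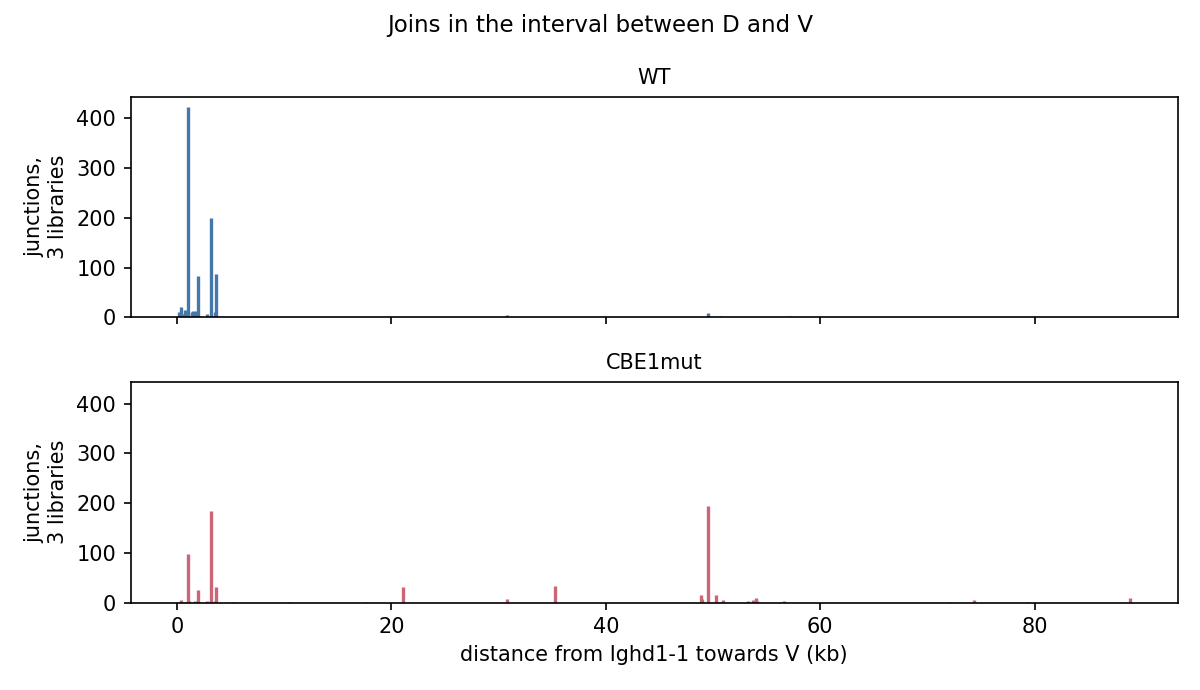
Junctions summed over the 3 WT (top) and the 3 CBE1mut (bottom) libraries at each site of the interval, against distance from Ighd1-1 towards the V segments in kb. WT junctions crowd within 5 kb of Ighd1-1, and CBE1mut junctions lie both there and at sites spread along the interval, the tallest beyond 5 kb being at 49.5 kb.

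Junctions between JH4 and the other JH segments stood at 1668, 2048 and 2092 per 100000 in WT and at 1584, 1574 and 1750 in CBE1mut, with overlapping groups (exact two-sided permutation p = 0.2, adjusted p = 0.286). Per 100 D joins they stood at 2.72, 3.29 and 3.12 in WT and at 5.72, 6.10 and 6.56 in CBE1mut, a 2.01-fold ratio of means with no overlap. The direction of the JH difference thus depends on whether all junctions or the D joins are the base. Nearly all, 96.3% ± 2.74 in WT and 95.7% ± 0.452 in CBE1mut, lay on the strand opposite to that of V and D joins. Those at Ighj3 stood at 748, 1054 and 1001 in WT and at 556, 635 and 737 in CBE1mut, lower in every CBE1mut library, and those at Ighj2 (725 ± 82.1 and 702 ± 48.4) and Ighj1 (197 ± 37.8 and 216 ± 46.7) overlapped. An inversional D join keeps the DNA between D and JH in the chromosome, and a deletional one removes it. The inversional share of D joins was 0.14%, 0.108% and 0.121% in WT and 0.159%, 0.182% and 0.309% in CBE1mut, from 180 of 145019 and 132 of 60684 joins (exact two-sided permutation p = 0.1, adjusted p = 0.167). The mean difference of 0.0934 points was 0.0474 points without CBE1mut replicate 3. With a 25 bp window it was 0.0818 points (exact two-sided permutation p = 0.2). Per 100000 junctions, inversional D joins stood at 78 ± 9.51 in WT and 57.7 ± 21.3 in CBE1mut, with overlap. The inversional share of V joins was 0.503% ± 0.0801 and 0.532% ± 0.0309 (exact two-sided permutation p = 0.7, adjusted p = 0.778).

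The ends of the joins differed little. Bases lay between bait and prey in 89.1%, 87.8% and 88.4% of D joins in WT and in 88.2%, 89.0% and 88.1% in CBE1mut (exact two-sided permutation p = 1). The mean number of bases between bait and prey was 3.56 ± 0.0447 for D joins in WT and 3.66 ± 0.0453 in CBE1mut, with no overlap. For V joins, where these bases include any D, the mean was 17.1 ± 0.0601 in WT and 16.9 ± 0.068 in CBE1mut, also with no overlap. Inside Ighv5-2 joins it was 16.9 in both genotypes. In joins of V segments other than Ighv5-1, Ighv5-2 and Ighv2-2 it was 17.2 ± 0.0587 in WT and 16.8 ± 0.194 in CBE1mut, with no overlap.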

How the data were processed

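The deposited files hold one line per read with a bait-to-prey junction, giving positions and strands on the alignment target (another unit than counts). Per the labels and the submitters' processing notes, the authors aligned reads with Bowtie2 (version not given in the sources used here) to a heavy-chain sequence of the strain joined to mm9, without an enzyme blocking step. Junctions were tabulated here. A junction belonged to a segment within 100 bp, segments being clusters of at least 50 joins named with BLAST+ 2.17.0. Levels are junctions per 100000, given as mean ± SD over 3 libraries. Segments that reached 10 junctions in 3 or more libraries entered voom in limma 3.58.1 (R 4.3.3), and zones entered limma on log2(level + 1), on all 18 bone marrow libraries of 6 groups, contrast CBE1mut minus WT, threshold 0.05 after Benjamini-Hochberg adjustment over all features of a fit. Single values were compared by exact permutation of 20 relabelings. The fit was tested on simulated data. Named were Ighd4-1, Ighd1-1, the D of the interval, the near V segments, and up to 10 risers and 10 fallers per fit with the largest change, no overlap and 20 per 100000 in a group. The members and lists were chosen with earlier results of these data known. Same-numbered libraries of both groups correlated at −0.112, 0.0394 and 0.118 in their deviations from the group means, so no block was used. Alternatives were other scalings, filters, fits, windows, repeated reads counted once and leaving out each library. Related V segments share sequence, and the alignment decided which received a read.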

Additional observations from a re-analysis of the deposited data

Results flagged for a closer look

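Outside the heavy-chain locus, 1 antigen receptor locus stood above the limit that a count of 0 allows in CBE1mut and at 0 in WT. The T cell receptor beta locus on chromosome 6, taken as mm9 40841295 to 43032096, held 6 junctions in the CBE1mut libraries and 0 in the WT libraries. All 6 lay at position 41493391 in Trbj2-4, a J segment of that locus, in CBE1mut replicate 1 alone, and they amounted to 5 distinct reads. The 2 kappa light chain junctions of CBE1mut also came from replicate 1. On chromosome 14, position 54179925 held 0 WT and 5 CBE1mut junctions in 2 libraries, and position 54179919 on the other strand held 6 and 1, in a locus with 8 and 6 in all.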

How the results depend on the processing

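The scaling decided how many segments were called. Against the main count of 105 segments per 100000 junctions, median-of-ratios scaling called 7 and TMM 8, and against 138 V segments within V joins both called 9. Under median-of-ratios and TMM, Ighd4-1 per 100000 turned to 0.43 and 0.46 and Ighv2-3 to 0.06 and 0.10 (log2). Within V joins Ighv5-4 turned to 1.18 and 1.15, Ighv2-4 to 0.78 and 0.74, Ighv5-9 to 0.48 and 0.42, and Ighv2-3 to 0.03 under median-of-ratios. These scalings moved the median log2 change from −1.02 to −0.02 and 0.02 for all segments. The in-frame difference of −15.3 points turned to 10.9 without Ighv5-1, Ighv5-2, Ighv2-2 and Ighv5-4. The Ighd1-1 difference inside V joins of −6.55 points was −7.58 with D runs of at least 10 bases and −6.17 with at least 6. The cause of these shifts was not tested beyond the change of scaling, segments or run length itself. Ighv5-1, Ighv5-2 and Ighv2-2 kept direction and call under all alternatives run, in both fits. Leaving out 1 library gave 75 to 108 called segments, 130 to 138 within V joins, 7 to 11 within D joins (7 without CBE1mut replicate 3) and 6 zones. It left the V share difference at 36.3 to 39.5 points, the effective V number at −68.2 to −64.1 and interval joins at −166 to −75.3 per 100000. The replicate block called 109 segments, 138 within V joins, 11 within D joins and 6 zones. For the single values a block leaves the difference as it is by construction and alters only the exact permutation p, which cannot go below 0.25. Depth limits the interval and inversional joins, which rest on few junctions.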
